A study of Homo sapiens with 24 samples.

Results

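The genes described here are 32 genes of cholesterol and fatty acid synthesis, among 59251 genes in the count table. They were chosen by symbol: the transcription factors SREBF1 and SREBF2 with their inhibitor INSIG1, enzymes that turn acetyl-CoA into cholesterol, a sterol carrier, and enzymes that make, lengthen, desaturate or activate fatty acids. All 32 were found, and all 32 passed the filter on low counts. RNA with poly(A) tails was sequenced from MCF10A, an established line of human breast epithelial cells whose parent is not tumorigenic. The labels give a non-transformed derivative, PE, and a derivative transformed by MYC, PM, without spelling out the letters. Each carried a control hairpin that targets GFP or 1 of a pair of hairpins that target CHD1, called A and B, which makes 6 groups of 4 libraries. Every group, controls included, received doxycycline at 50 ng/ml for 72 h, and no group without doxycycline or without a hairpin was analysed here. The labels give a medium with insulin, hydrocortisone and horse serum for all groups. The title of the series names CHD1, a chromatin remodelling ATPase, as a vulnerability of breast cancer driven by MYC. Replicates are called biological without a statement of how the cultures were separated, so a p-value here speaks only of the spread among these libraries, which may be technical.

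Cells make cholesterol from acetyl-CoA through mevalonate, isoprenoids, squalene and a series of ring-modifying steps, and fatty acids from the same precursor through malonyl-CoA. Both routes are transcribed under the SREBP factors, which are held in the endoplasmic reticulum by INSIG proteins when sterols are plentiful and are cut and sent to the nucleus when sterols are scarce. SREBF2 is best known for sterol genes and SREBF1 for fatty acid genes, and INSIG1 is itself a target of the pathway. The activity of the factors is set by proteolysis, which counts of RNA do not measure.

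CHD1 stood at 78.8 ± 5.53 CPM (counts of a gene relative to the TMM-scaled total of its library, mean ± SD, n = 4) with the GFP hairpin in PE, 29.2 ± 1.2005 with hairpin A and 28.1 ± 3.07 with hairpin B. In PM it stood at 90.0 ± 5.18, 31.04 ± 2.76 and 29.5 ± 5.40 CPM. Both hairpins lowered CHD1 in each line, and hairpin B differed from hairpin A by −0.06 on the log2 scale in PE (adjusted p = 0.769) and by −0.08 in PM (adjusted p = 0.648). Total counts per library ran from 4.14 M to 93.3 M with a median of 49.5 M. The shallowest library was replicate 1 of PE with the GFP hairpin, where 3 counts equal 0.668 CPM. Of 9 markers of breast epithelium all 9 passed the filter, with a summed level of 1320 to 2380 CPM, mostly from the basal keratin KRT5. Most of these markers had a lower mean with hairpin B in PE than with the GFP hairpin, and KRT8 and ITGB4 had a higher one. The cadherin CDH1 went from 9.22 ± 4.28 to 0.309 ± 0.257 CPM and the keratin KRT14 from 39.4 ± 13.1 to 0.529 ± 0.137. KRT8 went from 237 ± 34.9 to 369 ± 16.9 and the integrin ITGB4 from 84.9 ± 7.64 to 189 ± 30.5 (adjusted p at most 0.000667 for each of these 4). KRT17 went from 76.3 ± 32.2 to 2.29 ± 0.682 CPM, EPCAM from 21.3 ± 7.50 to 9.98 ± 2.25 and KRT5 from 1294.5 ± 304 to 830 ± 190. TP63 went from 0.510 ± 0.188 to 0.018 ± 0.0223 CPM, and KRT18 from 219 ± 10.0 to 210 ± 7.85 with overlapping libraries. Falls were not confined to that group. KRT17 stood at 14.3 ± 3.75 CPM with hairpin A in PE. In PM it stood at 69.2 ± 34.8 with the GFP hairpin, 16.5 ± 3.01 with A and 11.1 ± 2.79 with B. KRT14 in PM stood at 5.59 ± 3.62, 1.28 ± 0.844 and 1.18 ± 0.561 CPM. EPCAM stood at 7.23 ± 1.32 CPM with hairpin A in PE, but at 94.2 ± 9.14, 107 ± 3.83 and 92.8 ± 9.76 in PM. Of 5 markers of adipocytes, the other lipid-making cell of the breast, ADIPOQ and LEP were at 0 in all libraries of PE with the GFP hairpin or hairpin A. The summed level of the 5 in PE was 7.95 to 26.3 CPM for the GFP hairpin, 28.6 to 47.1 for hairpin A, and 16.6 to 35.4 for hairpin B. In PM it was 1.05 to 2.52 CPM for the GFP hairpin, 2.26 to 6.97 for hairpin A and 3.11 to 9.72 for hairpin B. In PE with the GFP hairpin, 5 markers of fibroblasts summed to 50.2 to 63.9 CPM and 4 of endothelium to 6.96 to 8.67. There 5 markers of immune cells summed to 43.5 to 60.6 CPM, mostly from CD68 (51.2 ± 7.41). The part of all these markers in the changes below was not tested, and in bulk RNA fewer cells of a type and less RNA per cell cannot be told apart.

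Promoters of 6 members are shown, chosen after their values were seen from those that passed in 1 direction under both CHD1 hairpins in a line: INSIG1, TM7SF2 and STARD4 were higher, and SREBF2, HMGCS1 and IDI1 were lower. ELOVL5 was also higher, and SREBF1, ACAT2, EBP and FADS1 were also lower, and their promoters are not shown. Each is the 250 bases before an annotated transcription start in RefSeq, build GRCh38.p14, written 5′ to 3′ in the direction of the gene. INSIG1, TM7SF2, STARD4, SREBF2 and HMGCS1 have this window next to the outermost start of the gene in RefSeq. That of IDI1 lies within the RefSeq span of the gene (chr10:1039152-1056704), before an inner start. Capitals mark the motifs searched on both strands: CCAAT (the box bound by NF-Y, written ATTGG on the other strand), the E-box CACGTG (a sequence bound by MYC and by SREBP factors) and the sterol element TCACNCCAC.
INSIG1 promoter, chr7:155297628-155297877, + strand: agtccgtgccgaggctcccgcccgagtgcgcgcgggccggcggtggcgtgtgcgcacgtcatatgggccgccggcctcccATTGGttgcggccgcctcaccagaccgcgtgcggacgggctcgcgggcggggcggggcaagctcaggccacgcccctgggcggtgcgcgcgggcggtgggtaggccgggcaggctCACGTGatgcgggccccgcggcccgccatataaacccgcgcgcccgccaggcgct
TM7SF2 promoter, chr11:65111622-65111871, + strand: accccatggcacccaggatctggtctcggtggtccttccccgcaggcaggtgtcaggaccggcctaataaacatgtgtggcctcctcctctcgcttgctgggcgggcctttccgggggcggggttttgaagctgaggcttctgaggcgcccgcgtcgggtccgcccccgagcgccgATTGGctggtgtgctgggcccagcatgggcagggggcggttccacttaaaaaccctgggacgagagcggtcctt
STARD4 promoter, chr5:111512536-111512785, − strand: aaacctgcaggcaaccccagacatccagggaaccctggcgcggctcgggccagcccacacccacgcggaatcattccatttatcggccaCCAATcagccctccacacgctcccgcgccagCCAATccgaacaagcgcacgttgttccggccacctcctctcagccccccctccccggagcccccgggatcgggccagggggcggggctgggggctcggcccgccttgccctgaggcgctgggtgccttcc
SREBF2 promoter, chr22:41832855-41833104, + strand: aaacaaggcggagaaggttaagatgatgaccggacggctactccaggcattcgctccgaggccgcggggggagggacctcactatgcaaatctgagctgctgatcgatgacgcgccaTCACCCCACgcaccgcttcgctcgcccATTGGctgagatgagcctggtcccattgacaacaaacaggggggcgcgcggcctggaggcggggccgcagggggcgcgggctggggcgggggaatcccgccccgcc
HMGCS1 promoter, chr5:43313413-43313662, − strand: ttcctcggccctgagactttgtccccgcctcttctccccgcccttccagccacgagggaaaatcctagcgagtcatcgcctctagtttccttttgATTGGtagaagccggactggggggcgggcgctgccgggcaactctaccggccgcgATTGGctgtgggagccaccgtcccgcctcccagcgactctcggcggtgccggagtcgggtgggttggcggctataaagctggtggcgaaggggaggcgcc
IDI1 promoter, chr10:1049120-1049369, − strand: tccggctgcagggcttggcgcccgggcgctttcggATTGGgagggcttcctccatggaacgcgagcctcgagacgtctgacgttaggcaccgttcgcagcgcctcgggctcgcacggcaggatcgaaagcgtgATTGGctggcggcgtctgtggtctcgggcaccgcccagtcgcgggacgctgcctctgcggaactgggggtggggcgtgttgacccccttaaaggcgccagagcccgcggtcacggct

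A CCAAT box was present in each of these 6 windows. It was absent from other windows of the same genes in the table, the second of HMGCS1 (chr5:43313182-43313431) and the one of IDI1 at its outermost start (chr10:1056705-1056954), and from those of SREBF1 and FADS1. Over the 28 members with a promoter in the table, 22 held CCAAT in at least 1 promoter, beside 37.0% of 27305 genes. The sterol element was found in SREBF2 alone of the 28 members, beside 1.09% of genes, and these letters leave out the looser forms of the element. CACGTG was found in 3 of 28 members, INSIG1, SC5D and ELOVL5, beside 7.73% of genes. A match describes the letters only.

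The members together made up 0.3691% to 0.5463% of the counts of a library. Their summed level was 4011 ± 168 CPM with the GFP hairpin in PE, 4729 ± 281 with hairpin A and 3764 ± 77.4 with hairpin B. In PM it was 4819 ± 253, 5310 ± 232 and 3772 ± 149 CPM. The sum was highest with hairpin A in each line and lowest with hairpin B. Per kilobase of exon, the level in PE with the GFP hairpin was highest for FASN (74.4 ± 7.16 CPM per kb), SCD (61.0 ± 3.10) and ACLY (56.6 ± 4.87). It was lowest for TM7SF2 (0.438 ± 0.222), STARD4 (2.47 ± 0.441) and HSD17B7 (3.03 ± 0.392).

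The hairpins against CHD1 moved many members, but not in 1 direction. In PE, hairpin A raised 13 members and lowered 1, beside 10.9% of all tested genes called higher and 9.33% called lower at an adjusted p under 0.05, or 20.2% in either direction. Hairpin B raised 5 and lowered 9, beside 13.6% and 13.2%, or 26.8% in either direction. In PM, hairpin A raised 8 and lowered 8, beside 13.4% and 14.3%. Hairpin B raised 1 and lowered 21 in PM, beside 13.6% and 14.4%. The median log2 change of the 32 members was 0.19 for hairpin A in PE, −0.13 for hairpin B in PE and −0.29 for hairpin B in PM, while the median over all tested genes was −0.00186, 0.00901 and 0.0136. Hairpin A in PM gave a member median of 0.00146, with 16 members above 0 and 16 below. With library sizes alone in place of TMM the share of calls that were higher among all genes for hairpin A in PE changed from 53.8% to 39.2%, and the member median was then 0.115. The same scaling changed that share from 41.5% to 56.5% for the line difference in hairpin A, from 60% to 71.5% for that in hairpin B, and from 45.1% to 56.4% in PE and 48.5% to 58.6% in PM for hairpin B against A. With the replicate number as a block, hairpin A in PE lowered 2 members (FADS1 and ACACA, the latter at −0.19, adjusted p = 0.0223), and hairpin B in PM raised 4 in place of 1.

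**Figure D1:**
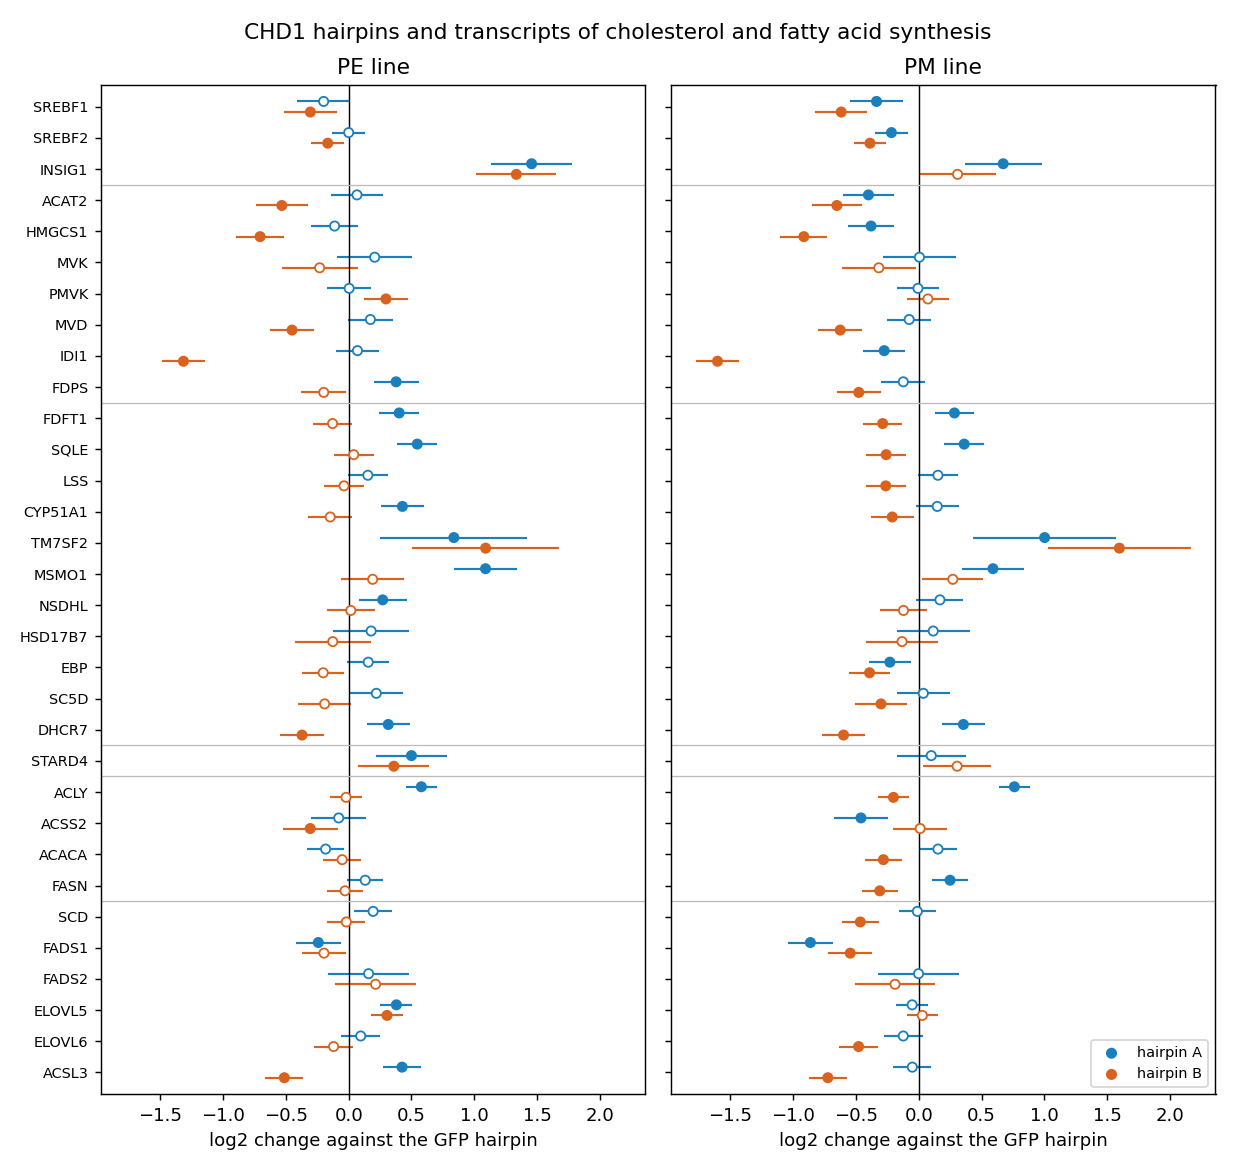
Log2 change of each of the 32 members with hairpin A (blue) and hairpin B (orange) against the GFP hairpin, in PE (left) and PM (right), with 95% intervals; filled points passed an adjusted p of 0.05 and grey lines part the functional groups. Blue points lie to the right of orange ones for most members, and INSIG1 and TM7SF2 lie to the right of 0 for both hairpins in each line.

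Because the hairpins of a line are compared with the same GFP libraries, a count under both is not independent for each. In PE, 4 members rose under both hairpins (INSIG1, TM7SF2, STARD4 and ELOVL5) and none fell, beside 6.75% and 5.58% of all genes. In PM, 1 member rose under both (TM7SF2) and 7 fell (SREBF1, SREBF2, ACAT2, HMGCS1, IDI1, EBP and FADS1), beside 6.46% and 6.89%. A count of 4 in 32 is 12.5% and a count of 7 in 32 is 21.9%. Without replicate 4 of PE with the GFP hairpin, the 4 rises in PE became 2. With the replicate block, 3 members rose under both hairpins in PM. Across lines, which share no libraries, hairpin A raised 7 members in both (INSIG1, FDFT1, SQLE, TM7SF2, MSMO1, DHCR7 and ACLY; 53.8% of the 13 in PE and 87.5% of the 8 in PM) and lowered FADS1 in both, beside 6.29% and 5.48% of all genes. Hairpin B lowered 8 members in both (SREBF1, SREBF2, ACAT2, HMGCS1, MVD, IDI1, DHCR7 and ACSL3; 88.9% of the 9 in PE and 38.1% of the 21 in PM) and raised TM7SF2 in both, beside 8.97% and 8.54%.

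INSIG1, which holds the SREBP complex in the endoplasmic reticulum, rose most among the members in PE. It stood at 40.3, 33.1, 34.5 and 30.1 CPM in the 4 libraries of PE with the GFP hairpin, at 106, 94.0, 105 and 67.3 with hairpin A, and at 101.01, 74.7, 82.8 and 83.4 with hairpin B. No library of either CHD1 hairpin overlapped the GFP group in PE. The change was 1.46 ± 0.15 (log2, ± SE) with hairpin A (adjusted p = 2.87e-07) and 1.34 ± 0.15 with hairpin B (adjusted p = 4.8e-07), which is 2.75-fold and 2.52-fold. In PM, INSIG1 stood at 45.2, 32.5, 34.3 and 25.5 CPM with the GFP hairpin, at 54.9, 57.0, 56.7 and 49.4 with hairpin A, and at 47.4, 43.3, 40.9 and 38.04 with hairpin B. Hairpin A again lay above every GFP library, and hairpin B overlapped them. The change in PM was 0.67 ± 0.15 with hairpin A (adjusted p = 0.00117) and 0.31 ± 0.15 with hairpin B (adjusted p = 0.129, or 0.00321 with the replicate number as a block).

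SREBF2, the factor of the sterol genes, fell with both hairpins in PM. It stood at 189.7, 173, 199 and 179.9 CPM with the GFP hairpin in PM, at 154, 151, 171 and 161 with hairpin A and at 145, 134, 144 and 143 with hairpin B. Each CHD1 hairpin lay below every GFP library, and hairpin B below every library of hairpin A. The change was −0.22 ± 0.06 with hairpin A (adjusted p = 0.00628) and −0.39 ± 0.06 with hairpin B (adjusted p = 6.14e-06). In PE, SREBF2 stood at 186, 191, 206 and 186 CPM with the GFP hairpin, at 188, 199, 194 and 189 with hairpin A, and at 166, 156, 179 and 184 with hairpin B. Only the libraries of hairpin B lay below the GFP group there, by −0.17 ± 0.06 (adjusted p = 0.0418). That call was lost without any one of replicates 1 and 2 of PE hairpin B, replicates 2, 3 and 4 of PE with the GFP hairpin, or replicate 1 of PM hairpin B (largest adjusted p 0.177).

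SREBF1, the factor of the fatty acid genes, differed between the lines and fell with the CHD1 hairpins in PM. With the GFP hairpin it stood at 84.6, 95.2, 85.8 and 95.6 CPM in PE and at 146, 109.7, 136 and 129 in PM, so that every PM library was above every PE library. Hairpin A gave 107, 92.8, 99.2 and 113 CPM in PM, and hairpin B gave 95.7, 68.9, 76.6 and 97.4. The change was −0.34 ± 0.10 with hairpin A (adjusted p = 0.0102), where 1 library overlapped the GFP group, and −0.62 ± 0.10 with hairpin B (adjusted p = 1.52e-05), where none did. In PE, hairpin A gave 73.9, 86.4, 77.9 and 77.3 CPM (−0.20 ± 0.10, adjusted p = 0.182) and hairpin B gave 78.0, 61.8, 71.7 and 81.2 (−0.31 ± 0.10, adjusted p = 0.0231), the latter below every GFP library. Leaving out replicate 2 or 3 of PE hairpin B, or replicate 2 or 4 of PE with the GFP hairpin, ended the call for hairpin B (largest adjusted p 0.0821). In PM the RNA of INSIG1 thus rose with hairpin A while that of both SREBP genes fell.

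**Figure D2:**
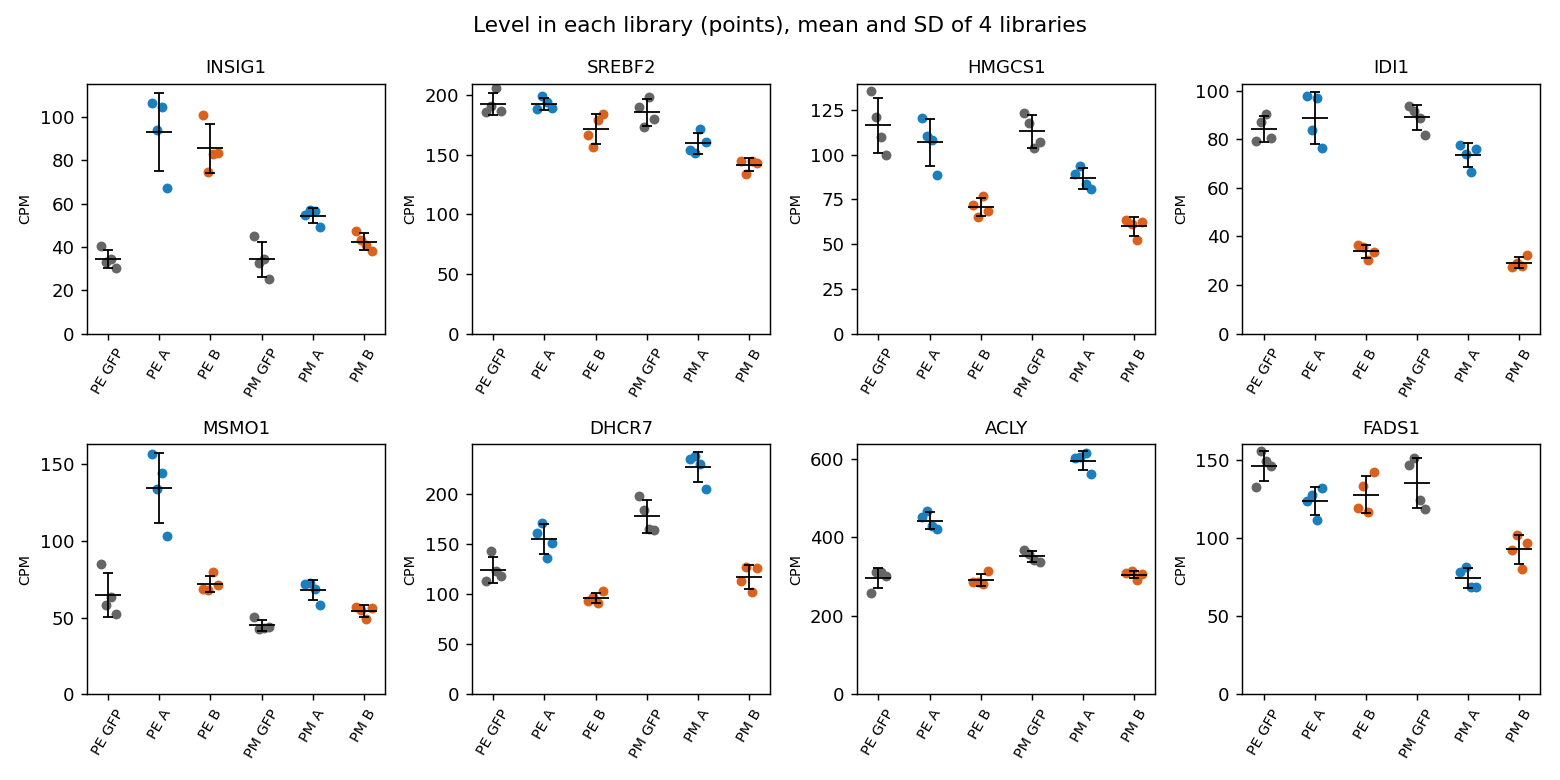
Level of 8 members in each library (points, CPM after TMM) with the mean and SD of 4 libraries (black), for the GFP hairpin (grey), hairpin A (blue) and hairpin B (orange) in PE and PM. IDI1 is lowest with hairpin B in each line, at 34.01 and 29.3 CPM, and ACLY is highest with hairpin A, at 442 and 595 CPM.

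Of the 7 enzymes of the mevalonate arm, which runs from acetyl-CoA to farnesyl pyrophosphate, 3 fell with both hairpins in PM and none moved the same way under both in PE. IDI1, which interconverts the isoprenoid units, fell most among the members with hairpin B. It stood at 79.2, 87.1, 90.3 and 80.3 CPM with the GFP hairpin in PE, at 98.0, 83.8, 96.9 and 76.2 with hairpin A, and at 36.4, 35.5, 30.4 and 33.8 with hairpin B. In PM it stood at 93.7, 91.6, 88.8 and 81.8 CPM with the GFP hairpin, at 77.8, 73.9, 66.6 and 75.9 with hairpin A, and at 27.6, 29.3, 27.999 and 32.3 with hairpin B. All 8 libraries of hairpin B lay below every other library. The change with hairpin B was −1.32 ± 0.08 in PE (adjusted p = 2.65e-14) and −1.60 ± 0.08 in PM (adjusted p = 1.22e-16), or 2.49-fold and 3.04-fold lower. With hairpin A it was 0.07 ± 0.08 in PE (adjusted p = 0.628) and −0.28 ± 0.08 in PM (adjusted p = 0.00772).

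HMGCS1, which makes HMG-CoA, was also lowest with hairpin B in each line. It stood at 136, 121, 109.6 and 99.6 CPM with the GFP hairpin in PE, at 120.4, 110.2, 108 and 88.7 with hairpin A, and at 72.1, 65.4, 77.0 and 68.6 with hairpin B. In PM the values were 123, 118, 104 and 107 CPM with the GFP hairpin, 89.0, 93.8, 83.5 and 80.9 with hairpin A, and 63.6, 61.2, 52.4 and 62.5 with hairpin B. In PM the 3 groups did not overlap one another, and in PE hairpin B lay apart from the rest. Hairpin B gave −0.71 ± 0.09 in PE (adjusted p = 1.55e-07) and −0.92 ± 0.09 in PM (adjusted p = 6.72e-10), and hairpin A gave −0.11 ± 0.09 (adjusted p = 0.443) and −0.38 ± 0.09 (adjusted p = 0.00102).

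ACAT2, the thiolase at the head of the arm, stood at 55.8, 56.2, 49.9 and 50.9 CPM with the GFP hairpin in PE, at 57.6, 61.5, 53.7 and 49.0 with hairpin A, and at 40.8, 39.5, 36.8 and 29.8 with hairpin B. In PM it stood at 60.4, 60.04, 49.2 and 59.5 CPM with the GFP hairpin, at 47.3, 46.8, 40.7 and 38.8 with hairpin A, and at 36.03, 41.6, 32.4 and 35.9 with hairpin B. Both CHD1 hairpins lay below the GFP group in PM (−0.40 ± 0.10, adjusted p = 0.00134, and −0.65 ± 0.10, adjusted p = 1.88e-06), and hairpin B did so in PE (−0.53 ± 0.10, adjusted p = 6.23e-05). The decarboxylase MVD fell with hairpin B, by −0.45 in PE and −0.63 in PM, and passed with hairpin A in neither line. Farnesyl pyrophosphate synthase, FDPS, rose with hairpin A in PE (114 ± 10.1 to 149 ± 19.1 CPM, adjusted p = 0.00112) and fell with hairpin B in PM (124 ± 12.1 to 88.7 ± 3.17, adjusted p = 3.28e-05). The kinase PMVK rose with hairpin B in PE alone of the 4 comparisons (0.30, adjusted p = 0.00607). The mevalonate kinase MVK passed in none of the 4, and with the replicate block it fell with hairpin B in PM (−0.32, adjusted p = 0.0488). Its fall with hairpin B passed in 6 of the alternative fits in PM and in 3 in PE. Among those in PE was the fit that left out replicate 1 of the GFP group and 2 other libraries (−0.37, adjusted p = 0.0147).

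Of the 11 enzymes of the sterol arm, which runs from squalene to cholesterol, hairpin A raised 7 in PE, raised 5 in PM and lowered 1 in PM, whereas hairpin B raised 1 in each line and lowered 1 in PE and 7 in PM. FDFT1 and SQLE, which make and epoxidise squalene, rose with hairpin A by 0.40 ± 0.07 and 0.55 ± 0.08 in PE and by 0.28 ± 0.07 and 0.36 ± 0.08 in PM. Both fell with hairpin B in PM (−0.29, adjusted p = 0.00305, and −0.26, adjusted p = 0.00812), the latter with an adjusted p of 0.0527 without replicate 2 of PM with the GFP hairpin. MSMO1, a demethylase of methylsterols, had the largest rise of the arm with hairpin A in PE. It stood at 84.8, 57.9, 63.1 and 52.1 CPM with the GFP hairpin in PE, at 156, 133, 144 and 103 with hairpin A, and at 68.8, 68.1, 79.4 and 71.3 with hairpin B. In PM it stood at 50.4, 42.6, 43.3 and 43.7 CPM with the GFP hairpin, at 71.5, 72.6, 68.6 and 58.2 with hairpin A, and at 56.9, 54.8, 48.9 and 56.5 with hairpin B. Hairpin A lay above every GFP library in each line, by 1.09 ± 0.12 in PE (adjusted p = 1.44e-07) and 0.59 ± 0.12 in PM (adjusted p = 0.000293). Hairpin B overlapped the GFP group in each line (0.19, adjusted p = 0.265, and 0.27, adjusted p = 0.0862, the latter 0.0246 with the replicate block). It passed as a rise in 9 of the alternative fits in PM and in 3 in PE. Those in PE were limma-voom, the fit without replicate 1 of the GFP group, and the fit that left out that library and 2 others (0.32, adjusted p = 0.0136).

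DHCR7, which reduces the last double bond on 1 of the routes to cholesterol, moved in opposite directions with the CHD1 hairpins. It stood at 124 ± 13.0 CPM with the GFP hairpin in PE, 155 ± 15.1 with hairpin A and 96.3 ± 5.38 with hairpin B. In PM it stood at 178 ± 16.4, 227 ± 14.8 and 117 ± 11.7 CPM. The changes were 0.32 (adjusted p = 0.00448) and −0.37 (adjusted p = 0.000606) in PE, and 0.36 (adjusted p = 0.000783) and −0.60 (adjusted p = 4.4e-07) in PM. EBP, the sterol isomerase, fell with both hairpins in PM. Its libraries there stood at 88.4, 92.6, 77.5 and 88.5 CPM with the GFP hairpin, at 78.7, 77.3, 74.1 and 65.4 with hairpin A, and at 65.8, 63.8, 62.9 and 71.8 with hairpin B. Hairpin A overlapped the GFP group and hairpin B did not (−0.23, adjusted p = 0.025, and −0.39, adjusted p = 0.000188). The call with hairpin A was lost without replicate 4 of that group or without replicate 1, 2 or 4 of the GFP group (largest adjusted p 0.129). In PE, EBP stood at 70.3, 91.0, 89.8 and 90.8 CPM with the GFP hairpin, at 98.0, 97.2, 100.1 and 89.4 with hairpin A, and at 79.5, 80.0, 66.8 and 73.9 with hairpin B. Neither hairpin passed, at 0.16 (adjusted p = 0.182) and −0.20 (adjusted p = 0.0563), but hairpin B passed in 12 of the alternative fits, among them the one without replicate 1 of PE with the GFP hairpin (−0.26, adjusted p = 0.00811).

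TM7SF2, a sterol reductase of low abundance, rose with both hairpins in each line. It stood at 0.445, 1.86, 2.19 and 1.48 CPM with the GFP hairpin in PE, at 2.59, 3.19, 3.34 and 2.81 with hairpin A, and at 3.87, 3.39, 3.78 and 3.14 with hairpin B. In PM it stood at 1.12, 0.920, 1.93 and 1.59 CPM with the GFP hairpin, at 3.21, 2.36, 2.33 and 3.42 with hairpin A, and at 4.52, 5.14, 4.05 and 3.34 with hairpin B. The CHD1 hairpins lay above every GFP library of their line. The changes were 0.84 ± 0.28 and 1.09 ± 0.28 in PE (adjusted p = 0.0294 and 0.00282) and 1.00 ± 0.27 and 1.60 ± 0.27 in PM (adjusted p = 0.00453 and 1.88e-05). Its lowest value rests on 2 counts, in replicate 1 of PE with the GFP hairpin, and other libraries held 31 to 348 counts. The call with hairpin A in PE was lost without replicate 1 or 4 of PE with the GFP hairpin or replicate 2 or 3 of PE hairpin A (largest adjusted p 0.0847). It was also lost with limma-voom (adjusted p = 0.101), with no filter (0.0583) and with only the groups compared (0.0653).

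Among the other enzymes of the arm, CYP51A1, the lanosterol demethylase, rose with hairpin A in PE (114 ± 5.86 to 153 ± 15.0 CPM, adjusted p = 2e-04). Its fall with hairpin B in PM lay at the threshold (−0.21, adjusted p = 0.0496) and was lost in 25 of the alternative fits. NSDHL, a decarboxylating dehydrogenase, rose with hairpin A in PE (0.27, adjusted p = 0.0311), a call lost without replicate 1 or 2 of that group or replicate 3 or 4 of the GFP group (largest adjusted p 0.119). The cyclase LSS (−0.26, adjusted p = 0.00783) and the desaturase SC5D (−0.30, adjusted p = 0.0207) fell with hairpin B in PM. That of LSS was lost without replicate 4 of hairpin B (adjusted p = 0.0618) and that of SC5D without replicate 1 or 3 of hairpin B or replicate 1 of the GFP group (largest adjusted p 0.114). HSD17B7, a ketosteroid reductase, passed in none of the 4 comparisons, with changes from −0.13 to 0.18. STARD4, which carries sterols between membranes, stood at 13.1, 13.3, 17.7 and 12.0 CPM with the GFP hairpin in PE, at 22.2, 16.7, 22.4 and 18.9 with hairpin A, and at 16.1, 19.9, 22.0 and 14.9 with hairpin B. Each CHD1 group reached down past the highest GFP library only (0.50 ± 0.14, adjusted p = 0.00657, and 0.36 ± 0.14, adjusted p = 0.0448). The call with hairpin B was lost without replicate 1, 2 or 4 of PE with the GFP hairpin, replicate 2 or 3 of PE hairpin B or replicate 1 of PM hairpin B (largest adjusted p 0.227). In PM, STARD4 stood at 18.1, 15.0, 16.9 and 14.3 CPM with the GFP hairpin, at 19.6, 16.7, 17.0 and 15.7 with hairpin A and at 20.4, 20.8, 17.2 and 21.2 with hairpin B, and passed with neither (0.10 and 0.31, the latter at adjusted p = 0.034 with the block).

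In the supply of acetyl-CoA and the making of fatty acids, hairpin A raised ACLY and hairpin B did not. ACLY, which cuts citrate into acetyl-CoA, stood at 295 ± 25.4 CPM with the GFP hairpin in PE, 442 ± 21.2 with hairpin A and 292 ± 15.5 with hairpin B. In PM it stood at 351 ± 14.7, 595 ± 23.2 and 305 ± 10.1 CPM. Hairpin A lay above every GFP library in each line (0.58 ± 0.06, adjusted p = 5.15e-09, and 0.76 ± 0.06, adjusted p = 5.47e-12), and hairpin B was lower in PM (−0.20 ± 0.06, adjusted p = 0.00904). Fatty acid synthase, FASN, rose with hairpin A in PM (0.25, adjusted p = 0.0048) and fell with hairpin B in PM (−0.31, adjusted p = 0.000522). The carboxylase ACACA fell with hairpin B in PM (−0.28, adjusted p = 0.00225). The acetate ligase ACSS2 fell with hairpin A in PM (−0.46, adjusted p = 0.000757), and in PE its fall with hairpin B (−0.31, adjusted p = 0.0264) was lost without replicate 1 or 4 of the GFP group or replicate 2 or 4 of hairpin B (largest adjusted p 0.125).

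Among the 6 enzymes that desaturate, lengthen or activate fatty acids, FADS1, the delta-5 desaturase, fell with both hairpins in PM. It stood there at 147, 152, 125 and 119 CPM with the GFP hairpin, at 78.8, 81.6, 68.7 and 69.2 with hairpin A, and at 92.5, 102, 80.2 and 96.8 with hairpin B. The fall was larger with hairpin A (−0.86 ± 0.08, adjusted p = 8.54e-10) than with hairpin B (−0.55 ± 0.08, adjusted p = 4.29e-06), and hairpin B lay above hairpin A by 0.32 (adjusted p = 0.00439). In PE it stood at 133, 156, 149.6 and 147 CPM with the GFP hairpin, at 124, 128, 112 and 133 with hairpin A (−0.24, adjusted p = 0.0388), and at 119, 134, 117 and 142 with hairpin B (−0.20, adjusted p = 0.0848). The call with hairpin A in PE was lost without replicate 1 or 3 of that group or replicate 2, 3 or 4 of the GFP group (largest adjusted p 0.125).

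ELOVL5, an elongase of polyunsaturated chains, rose with both hairpins in PE. It stood at 106, 105, 113 and 99.3 CPM with the GFP hairpin, at 144, 135, 134 and 139 with hairpin A, and at 134, 131, 123 and 136 with hairpin B. No library of either CHD1 hairpin overlapped the GFP group (0.38 ± 0.06, adjusted p = 1.26e-05, and 0.31 ± 0.06, adjusted p = 0.000169). In PM it stood at 109, 114, 117 and 122 CPM with the GFP hairpin, at 109, 111, 104 and 121 with hairpin A, and at 118, 117, 114 and 122 with hairpin B, with no call. ACSL3, which attaches fatty acids to coenzyme A on lipid droplets, rose with hairpin A in PE (0.43, adjusted p = 3.4e-05) and fell with hairpin B in PE (−0.51, adjusted p = 1.01e-06) and PM (−0.72, adjusted p = 9.97e-10). The desaturase SCD and the elongase ELOVL6 fell with hairpin B in PM (−0.47, adjusted p = 3.94e-06, and −0.48, adjusted p = 3.72e-06). SCD with hairpin A in PE lay just short of the threshold (0.19, adjusted p = 0.0503, or 0.0141 with the block). FADS2, the delta-6 desaturase, passed with neither hairpin in either line, with changes from −0.19 to 0.21.

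The hairpins against CHD1 differed from each other at most members, while CHD1 itself did not pass between them. Hairpin B was below hairpin A at 18 members and above at 1 in PE, beside 9.09% and 7.48% of all genes, and below at 21 and above at 2 in PM, beside 13.5% and 12.7%. These comparisons use different libraries in each line. Lower with hairpin B in both lines were 16 members, which is 50% of the 32, 88.9% of the 18 in PE and 76.2% of the 21 in PM, beside 5.7% of all genes. The 16 were ACAT2, HMGCS1, MVD, IDI1, FDPS, FDFT1, SQLE, CYP51A1, MSMO1, NSDHL, SC5D, DHCR7, ACLY, SCD, ELOVL6 and ACSL3. Across the 32 members the differences in PE and PM had r = 0.718, beside 0.267 across all tested genes, given as a description since genes of 1 fit are not independent. The largest were IDI1 (−1.39 ± 0.08 in PE, −1.33 ± 0.08 in PM), ACSL3 (−0.94 and −0.67), MSMO1 (−0.90 and −0.32), DHCR7 (−0.69 and −0.95) and ACLY (−0.60 and −0.96). PMVK was the member above in PE, and ACSS2 and FADS1 were those above in PM. With the replicate block SREBF2 (−0.17, adjusted p = 0.017) and LSS (−0.19, adjusted p = 0.0325) also passed in PE and INSIG1 (−0.37, adjusted p = 0.000801) in PM. Among the 16, ACAT2 (adjusted p = 0.0492) and MSMO1 (0.0421) in PM and NSDHL (0.045) and ELOVL6 (0.0389) in PE lay close to the threshold and were lost in 25, 20, 17 and 18 alternative fits. SCD in PE was lost in 7, SC5D in PM in 3 and NSDHL in PM in 2. Leaving out 1 library gave 14 to 18 lower members in PE and 16 to 21 in PM, and PMVK was lost without replicate 1 of PE hairpin A or replicate 2 of PE hairpin B (largest adjusted p 0.0527).

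**Figure D3:**
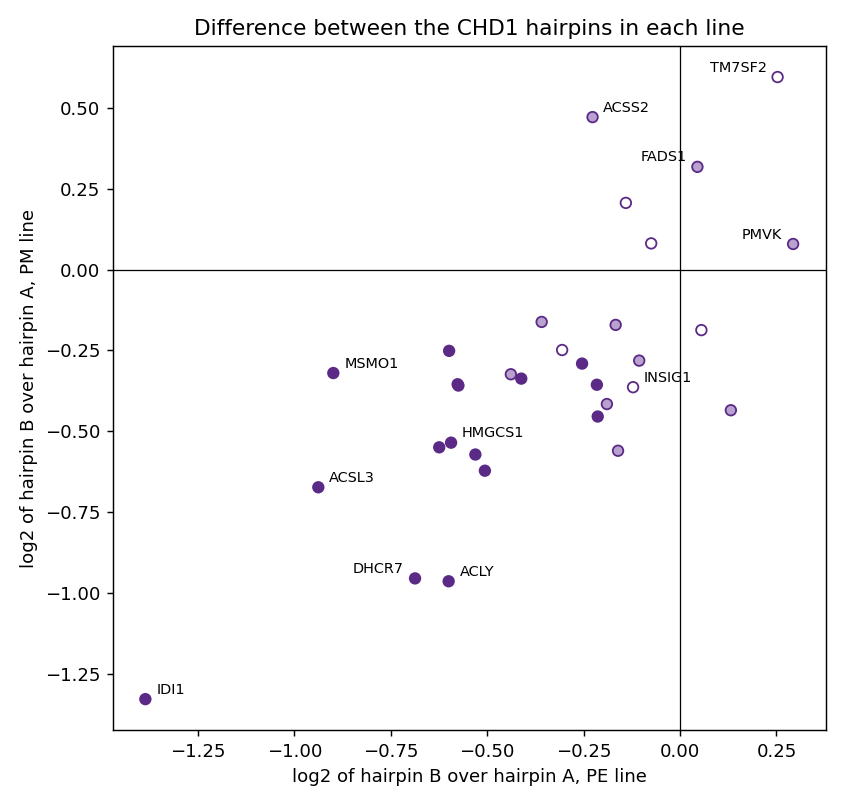
Log2 difference of hairpin B over hairpin A for the 32 members in PE (horizontal) and PM (vertical); dark points passed in both lines, pale points in 1 and open points in neither. The dark points all lie below 0 on both axes, with IDI1 farthest at −1.39 and −1.33.

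MYC differed between these groups in PM. It stood at 518 ± 27.4 CPM with the GFP hairpin in PM, 564 ± 28.2 with hairpin A and 392 ± 12.3 with hairpin B, a fall of −0.40 with hairpin B (adjusted p = 3.58e-06). In PE it stood at 275 ± 17.7, 258 ± 8.30 and 275 ± 24.0 CPM, with no call. The share of counts from mitochondrial ribosomal RNA ranged over 0.216% to 0.341% with the GFP hairpin in PM and 0.415% to 0.567% and 0.424% to 0.488% with the CHD1 hairpins. The same share in the libraries of PE was 0.272% to 0.439% for GFP, 0.374% to 0.44% for A and 0.429% to 0.586% for B. Their part in the members' changes was not tested.

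With the GFP hairpin, 7 members were higher in PM than in PE and 3 were lower, beside 14.1% and 11.4% of all genes. The higher ones were SREBF1, DHCR7, ACLY, ACACA, FASN, SCD and ELOVL6, of which 5 belong to fatty acid synthesis, and the lower ones were MSMO1, ACSS2 and FADS2. FASN stood at 655, 781, 631 and 717 CPM in PE and at 1204, 1094, 1185 and 1045 in PM. SCD stood at 346, 335, 319 and 308 CPM in PE and at 539, 490.4, 453 and 421 in PM. FADS2 stood at 83.9, 90.2, 81.6 and 64.6 CPM in PE and at 58.8, 46.4, 42.96 and 29.7 in PM. None of these 3 overlapped between the lines, with changes of 0.70 ± 0.07 (adjusted p = 7.06e-10), 0.54 ± 0.07 (adjusted p = 3.63e-07) and −0.85 ± 0.16 (adjusted p = 0.00026). ACSS2 stood at 51.0, 39.6, 37.6 and 42.6 CPM in PE and at 30.1, 24.6, 29.1 and 26.7 in PM (−0.61 ± 0.11, adjusted p = 2.8e-05). The libraries of SREBF1 and MSMO1, given above, did not overlap either, with changes of 0.52 ± 0.10 (adjusted p = 0.000189) and −0.49 ± 0.12 (adjusted p = 0.00282). The 7 members of the mevalonate arm had no call, with changes from −0.03 to 0.19. PE and PM are each 1 line, so a difference between them cannot be told apart from one between 2 derivatives for other reasons than MYC.

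**Figure D4:**
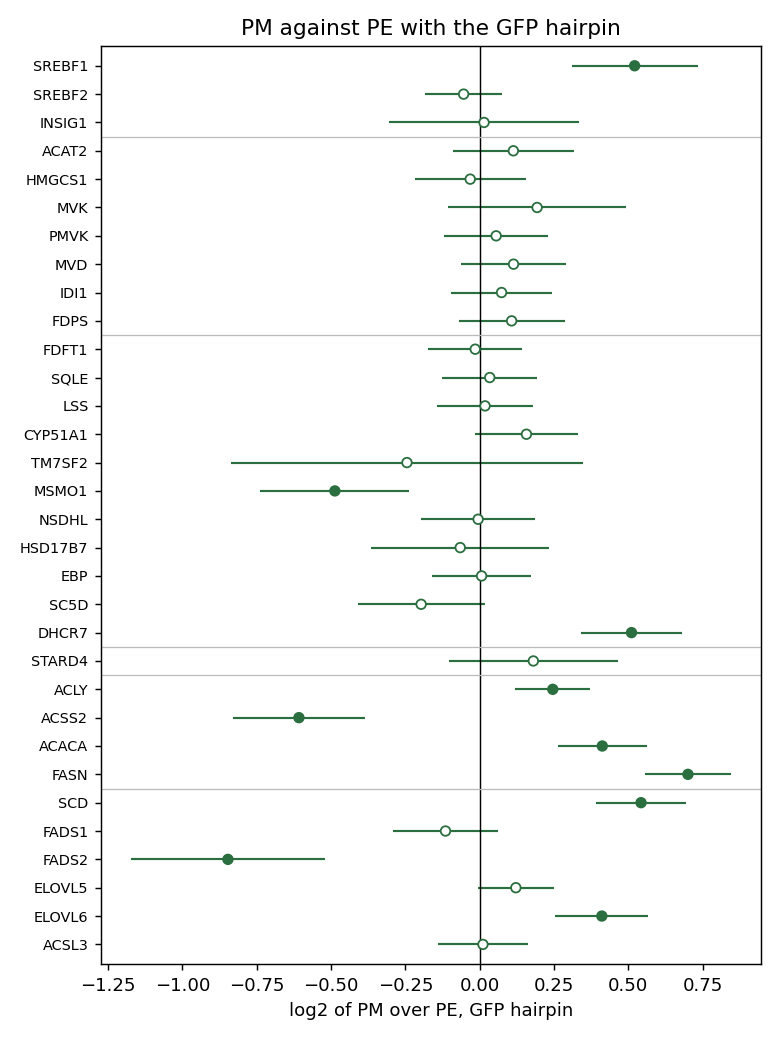
Log2 difference of PM over PE with the GFP hairpin for the 32 members, with 95% intervals; filled points passed an adjusted p of 0.05. FASN lies farthest to the right at 0.70 and FADS2 farthest to the left at −0.85.

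The effect of hairpin A differed between PM and PE at 8 members, higher in PM at 1 and lower at 7, beside 2.76% and 3.9% of all genes, or 6.66% in either direction. That of hairpin B differed at 2, none higher and 2 lower, beside 1.47% and 0.98%, or 2.45% in either direction. INSIG1 was the member that passed for both hairpins, at −0.79 ± 0.21 for A (adjusted p = 0.0246) and −1.03 ± 0.21 for B (adjusted p = 0.00628), beside 0.437% of all genes lower for both. The call for hairpin A was lost in 11 of the alternative fits, with adjusted p up to 0.0761, and that for hairpin B was kept in each (largest adjusted p 0.0249). FADS1 (−0.62, adjusted p = 0.000941), ACSL3 (−0.48, adjusted p = 0.00257), ELOVL5 (−0.43, adjusted p = 0.00115) and FDPS (−0.50, adjusted p = 0.00657) were also lower in their response to hairpin A in PM than in PE. ACAT2 and EBP (adjusted p = 0.0303 and 0.0291) were lower too and ACACA was higher (0.34, adjusted p = 0.0352). The calls of INSIG1, ACAT2, EBP and ACACA for hairpin A were lost without 1 or another single library, and the 7 lower members became 4 without replicate 1 or 3 of PE hairpin A, replicate 4 of PM hairpin A or replicate 1 of PM with the GFP hairpin. SCD was the other call for hairpin B (−0.45, adjusted p = 0.00756). IDI1 and HMGCS1 did not pass for either hairpin: for hairpin B the differences were −0.29 (95% interval −0.53 to −0.05) and −0.21 (−0.47 to 0.05). For hairpin A, IDI1 gave −0.35 (adjusted p = 0.0593) and passed with the replicate block (adjusted p = 0.0348), and MSMO1 gave −0.50 (adjusted p = 0.0726) and likewise passed (adjusted p = 0.0133). The 2 lower members for hairpin B became 6 with the block, which added SQLE (−0.30), FADS1 (−0.34), ELOVL5 (−0.28) and ELOVL6 (−0.36).

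Within groups the members varied together to a limited degree. The deviations of 24 libraries from their group means gave a median r of 0.24 over 465 pairs of 31 members, with 71.8% of pairs above 0. No value for pairs of other genes was computed beside it. Libraries of equal replicate number also deviated together over 11049 genes (median r 0.258, other numbers −0.102). The values are therefore a description, and a part of depth or RNA quality was not tested. The closest pairs were HMGCS1 with MSMO1 (r = 0.863) and FDPS with SQLE (r = 0.855). SREBF1 and SREBF2 lay nearest to each other (r = 0.53) and had median r values with the other members of −0.04 and −0.07. Some values are uncertain because the strand setting of the counting is not given in the sources used here: 52.3% of the exon bases of ACAT2 lie opposite exons of neighbours such as TCP1, 18.6% of FDPS opposite RUSC1-AS1, 14.8% of IDI1 opposite IDI2-AS1 and 15.0% of HMGCS1 opposite a gene with a clone name. For CYP51A1, 79.4% lie under another annotated gene on the same strand, and FDPS, CYP51A1 and HSD17B7 have near-identical pseudogene copies whose reads the counting could have split.

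Among genes around the pathway, SOAT1, which esterifies cholesterol for storage, rose with both hairpins in each line. It stood at 27.7 ± 5.42 CPM with the GFP hairpin in PE, 82.1 ± 5.12 for hairpin A, 83.8 ± 4.27 for hairpin B, and at 23.7 ± 4.96, 64.4 ± 4.60 and 72.3 ± 4.25 in PM. Of 18 tested genes of sterol uptake, export, storage and LXR, 4 rose and 2 fell with both hairpins in PE (the receptor SCARB1 at 0.60 and TMEM97 at −0.51 on average) and 1 rose and 1 fell in PM. Of 13 tested enzymes of other isoprenoids, 2 rose in PE and 2 rose and 1 fell in PM. COQ2, of ubiquinone synthesis, rose in each line (0.87 and 0.65), and GGPS1, which makes geranylgeranyl pyrophosphate, fell in PM (−0.42). Of 22 further tested enzymes of fatty acid synthesis, elongation and activation, 5 rose and 1 fell with both hairpins in PE, and 3 rose and 2 fell in PM. The elongase ELOVL7 fell in each line (−2.00 and −1.26 on average), and ACSL4, which activates arachidonic acid, rose (0.66 and 1.00). Of 15 tested enzymes of glycerolipid synthesis, 3 rose and 1 fell in PE and 2 rose and 1 fell in PM. AGPAT1, which makes phosphatidic acid, rose by 1.34 and 1.33 on average, and the phosphatidate phosphatase LPIN1 by 0.63 in each line. Of 23 tested genes of fatty acid oxidation, 10 rose and 2 fell in PE and 8 rose and 1 fell in PM. Among them the dehydrogenase ACADSB rose by 0.75 and 0.83 on average and the electron carrier ETFB by 0.68 and 0.52. These lists were chosen with earlier results of these data known, and the background shares for both hairpins given above hold for them too.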

How the data were processed

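RNA with poly(A) tails from 24 libraries of MCF10A derivatives (6 groups of 4) was sequenced after a directional library kit, per the labels' protocols. The deposited values are raw counts of reads per gene, which the authors made with FastQC, Trim Galore 0.4.0, HISAT2 2.2.1 and featureCounts on GRCh38, per the submitters' processing notes. Which annotation was used, whether counting used strand and how reads with several matches were handled is not stated in the labels or notes. From these counts, CPM after TMM scaling were computed, and 20820 genes that passed filterByExpr were fitted with edgeR 4.0.16 (R 4.3.3), by the robust quasi-likelihood test over all 6 groups with 18 residual degrees of freedom. P-values were adjusted by Benjamini-Hochberg over all tested genes within each comparison, with a threshold of 0.05. The SE of a log2 change is its size divided by the square root of F. Totals of 4.14 M to 93.3 M counts put 3 counts at 0.0323 to 0.668 CPM, and such floors cover counting error only. An exact permutation test of 4 against 4 libraries has 70 assignments and a smallest two-sided p of 0.0286. CHD1 reached it in each comparison of a CHD1 hairpin with the GFP hairpin. For hairpin B against hairpin A its exact p was 0.686 in each line.

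The members and gene lists were chosen with earlier results of these data known. Values in every library are given for SREBF1, SREBF2 and INSIG1, for members past the threshold under both CHD1 hairpins in a line or in both line differences, and for the 3 largest changes each way between PM and PE. From each further list, up to 4 genes past the threshold under both hairpins in a line could be named. The list of SREBP escort, proteolysis and degradation is not reported here. Promoters come from RefSeq, build GRCh38.p14, with 28 of 32 members matched, and exon lengths and overlaps from GENCODE 29, whose build is GRCh38. Replicate numbers are shared across groups. Deviations from group means correlated over 0.1 in 54 of 60 same-number pairs (median r 0.258, other numbers −0.102). They did so in every pair for hairpin A in PE and PM, hairpin B in PM and hairpin B against A, so these count as paired by the data, not by the labels. The main fit had no block. The counts, SE and adjusted p given are therefore unpaired unless the replicate block is named, and the exact tests are unpaired too. The alternatives tried were the Wald test of DESeq2 1.42.0, limma-voom (limma 3.58.1), scaling by the size factors of DESeq2 or by library sizes only, no filter, a filter of 5 CPM in 4 libraries, the replicate block, only the groups compared, a minimum log2 change of 0.5, each library left out, and 3 libraries left out together. The fit of hairpin B against the GFP hairpin in PM was also run on simulated counts. These were drawn without variation shared by equal replicate numbers, and the other comparisons were not simulated.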

Additional observations from a re-analysis of the deposited data

Results flagged for a closer look

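In 10 of 192 groups of 4 libraries, 1 library stood far from the other 3, and chance gives about 1 in 20 such groups. The low ones were SREBF2 in replicate 2 of PM hairpin B (134 CPM, the others 143 to 145), ACAT2 in replicate 3 of PM with the GFP hairpin (49.2, the others 59.5 to 60.4), NSDHL in replicate 3 of PM hairpin A (45 against 49.7 to 50.3), and HSD17B7 in replicate 4 of PE hairpin B (10.9 against 13.7 to 14). EBP was low in replicate 1 of PE with the GFP hairpin (70.3 against 89.8 to 91), the shallowest library, and ACSL3 in replicate 3 of PM with the GFP hairpin (130 against 148 to 150). The high ones were MSMO1 in replicate 1 of PM with the GFP hairpin (50.4 against 42.6 to 43.7), ACLY in replicate 4 of PE hairpin B (315 against 281 to 286), ACACA in replicate 1 of PE hairpin B (266 against 237 to 241) and FASN in replicate 1 of PM hairpin B (985 against 881 to 897).

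The response to a CHD1 hairpin differed between PM and PE in 10 of 64 pairs of a member and a hairpin, by the interaction term of the edgeR fit. Beside this stood 6.66% of all tested genes for hairpin A and 2.45% for hairpin B. Both hairpins share the GFP libraries of each line, so the pairs are not independent. For hairpin A the differences on the log2 scale, PM minus PE, were −0.785 for INSIG1, −0.467 for ACAT2, −0.502 for FDPS, −0.386 for EBP, 0.336 for ACACA, −0.622 for FADS1, −0.433 for ELOVL5 and −0.477 for ACSL3. For hairpin B they were −1.03 for INSIG1 and −0.447 for SCD. The calls of INSIG1, ACAT2, EBP and ACACA for hairpin A were lost in 11, 11, 9 and 6 of the alternative fits.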

How the results depend on the processing

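No value changed its direction past the threshold under any of the alternatives run. With a minimum log2 change of 0.5, hairpin A in PE raised 6 members and lowered 0, hairpin B in PE raised 2 and lowered 4, hairpin A in PM raised 4 and lowered 1, and hairpin B in PM lowered 8. The line difference was then higher at 0 and lower at 3 members for hairpin A and lower at 1 for hairpin B, and 4 members were higher in PM than in PE. Hairpin B exceeded hairpin A at 0 members in PE and 0 in PM and was below it at 9 in PM, 2 members rose under both hairpins in PE and 1 fell under both in PM. These counts are smaller by construction. No share over all tested genes was computed at this minimum, so they cannot be set against a background. The 1 member lowered by hairpin A in PE became 3 with library sizes alone and 2 with DESeq2 size factors, the Wald test, the 5 CPM filter, the replicate block or only the groups compared. The 1 member raised by hairpin B in PM became 2 with library sizes alone, voom, no filter or the 5 CPM filter, 3 with the Wald test, only the groups compared or 3 libraries left out (replicate 1 of PE with the GFP hairpin, replicate 4 of PM hairpin A and replicate 3 of PM hairpin B), and 4 with the replicate block. The 1 higher line difference for hairpin A became 2 with library sizes alone, the Wald test, the 5 CPM filter or the 3 libraries left out. Members that rose under both hairpins in PE became 2 with only the groups compared, and those that fell became 2 with library sizes alone and 1 with voom, the 5 CPM filter, the replicate block, only the groups compared or the 3 libraries left out. Those that rose under both in PM became 3 with the Wald test or the replicate block and 2 with voom, no filter, only the groups compared or the 3 libraries left out. The cause of these shifts was not tested.

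With the replicate number as a block, the lower line differences for hairpin B became 6, and FDPS (−0.21), EBP (−0.21) and FADS1 (−0.20) passed for hairpin B in PE, where same-number libraries did not all pair (lowest r for that group 0.0954). IDI1 (−0.34) and MSMO1 (−0.50) passed for the line difference in hairpin A. In all, 22 of 24 libraries correlated best with their own number, a hint from the data.

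Leaving out 1 library gave, for higher and lower members, 11 to 14 and 0 to 2 (hairpin A in PE), 4 to 5 and 6 to 10 (hairpin B in PE), 8 to 10 and 7 to 8 (hairpin A in PM), and 1 to 2 and 19 to 21 (hairpin B in PM). It gave 0 to 2 and 4 to 9 for the line difference in hairpin A, 0 and 2 to 3 for that in hairpin B, 7 and 3 for PM against PE, 0 to 1 and 14 to 18 for hairpin B against A in PE, and 2 and 16 to 21 in PM. Under both hairpins it gave 2 to 4 and 0 to 1 in PE and 1 to 2 and 6 to 7 in PM. Depth limits TM7SF2 most, with 2 counts in the shallowest library.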
